A study of Mus musculus with 6 samples.

Results

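A set of 10 nuclear genes that encode chaperones and proteases of mitochondria were followed in mouse brain endothelial cells exposed to the HIV integrase inhibitor dolutegravir (DTG). They were taken by name: the chaperone genes Hspd1, Hspe1, Hspa9, Dnaja3 and Trap1 and the protease genes Lonp1, Clpp, Clpx, Yme1l1 and Afg3l2. The choice was made with earlier results of these data known, as was that of the gene lists set beside them below. All 10 were found among the 43271 Ensembl genes of the deposited count table, and all 10 passed the filter on low counts, which kept 14101 genes. The cells were wild-type primary microvascular endothelial cells of C57BL/6 mouse brain, grown as confluent monolayers in a growth medium that contained serum, hydrocortisone and vascular endothelial growth factor. One group of 3 libraries received the vehicle dimethyl sulfoxide (DMSO) and the other group of 3 received DTG at 5000 ng/ml, each for 24 h. Nothing in the labels states that replicates were independent cultures or animals. The library names also carry numbers that the labels do not define. These are 1, 1 and 3 for DMSO replicates 1 to 3 and 2, 2 and 3 for DTG replicates 1 to 3. Whether libraries of a group with the same number come from the same cells is not stated. The p-values therefore reflect only the library-to-library spread, which may be technical. The title of the series places the study in the context of barrier damage and endoplasmic reticulum (ER) stress, and no purpose is stated for the mitochondrial genes.

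Most mitochondrial proteins are made in the cytosol and threaded unfolded through the membranes, so the matrix holds its own folding machines. HSP60 (Hspd1) and its lid HSP10 (Hspe1) form a barrel in which proteins fold, mtHSP70 (Hspa9) pulls in and holds incoming chains with the help of J-domain partners such as Dnaja3, and Trap1 is the HSP90 of the organelle. Proteins that fail to fold are cut by ATP-driven proteases: Lonp1 and the Clpx-Clpp pair in the matrix, and Afg3l2 and Yme1l1 in the inner membrane. Raised transcription of such genes is part of what is known as the mitochondrial unfolded protein response. The transcription factors ATF5, CHOP (Ddit3) and ATF4 have been described as mediators of that response in mammalian cells. Higher mRNA of these genes does not by itself show the response, and whether it took place in these cells was not tested.

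Library totals ranged from 41162353 to 56316335 counts, and levels are given as CPM, counts scaled to a common library size with TMM factors. In a principal component analysis of log2(CPM + 1), the first component (87.6% of variance) separated the groups, and DTG replicate 1 lay at 27.1 where DTG replicates 2 and 3 lay at 41.4 and 40.1. DTG replicate 1 was also the only DTG library whose name carries the tag P5, which the labels do not define; DMSO replicate 1 and DTG replicates 2 and 3 carry P4, and DMSO replicates 2 and 3 carry P5. The 8 endothelial marker genes summed to between 8358 and 8956 CPM in DMSO and between 5838 and 6168 CPM in DTG. Of these 8, 7 were called lower with DTG, among them Kdr (-1.22 log2) and Pecam1 (-0.81 log2), while Cdh5 stood at 1874 ± 117.1 CPM in DMSO and 2115 ± 105.6 CPM in DTG (SD, n = 3 each) and was not called. Each of the 6 pericyte, 4 smooth muscle, 4 astrocyte, 6 microglia and macrophage and 4 epithelial markers stayed under 1 CPM in every library, as did 2 of 4 fibroblast, 3 of 4 neuron and 3 of 4 oligodendrocyte markers. Rgs5, Kcnj8, Higd1b, Cnn1, Aqp4, P2ry12, Mog, Olig2 and Epcam had no count in any library. The fibroblast sum was 6.52 to 7.44 CPM in DMSO and 7.2 to 8.53 CPM in DTG, the oligodendrocyte sum 1.57 to 1.87 and 1.23 to 1.41 CPM, and the neuron sum, in which only Tubb3 reached 1 CPM, 0.158 to 0.322 and 2.21 to 6.04 CPM. The part of these shifts in the results below was not tested, and fewer cells of a type and less RNA per cell cannot be told apart in bulk RNA.

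Of the 10 genes, 9 rose under DTG and none fell, with Lonp1 (3.27-fold) and Hspa9 (3.08-fold) moving most and Clpx not passing the test. Across all 14101 genes tested, 3860 (27.4%) were called higher and 4130 (29.3%) lower at an adjusted p under 0.05 (edgeR's quasi-likelihood test, Benjamini-Hochberg over all genes). The count of 0 lower members also holds at an unadjusted p under 0.05 and with DESeq2 and limma-voom, since each of the 10 fitted changes was positive. The median log2 change of the 10 genes was 0.81, beside -0.01 for all genes tested. Because the 10 genes were chosen with earlier results of these data known, their count and median describe the list only. In CPM, every DTG library exceeded every DMSO library for each of the 10 genes, and such separation, in either direction, was seen in 64.2% of all genes tested. Together the 10 genes made up 1089 ± 21.9 CPM in DMSO and 2320 ± 228 CPM in DTG (SD, n = 3 each), a 2.13-fold difference. The median change of all genes was -0.015 log2 with TMM and -0.185 log2 with library size alone, which called 2536 genes higher and 5730 lower. With that scaling 7 of the 10 genes were still called higher, 0 were called lower, and their median was 0.64. Without DTG replicate 1, the library that stood apart, all 10 passed as higher.

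**Figure D1:**
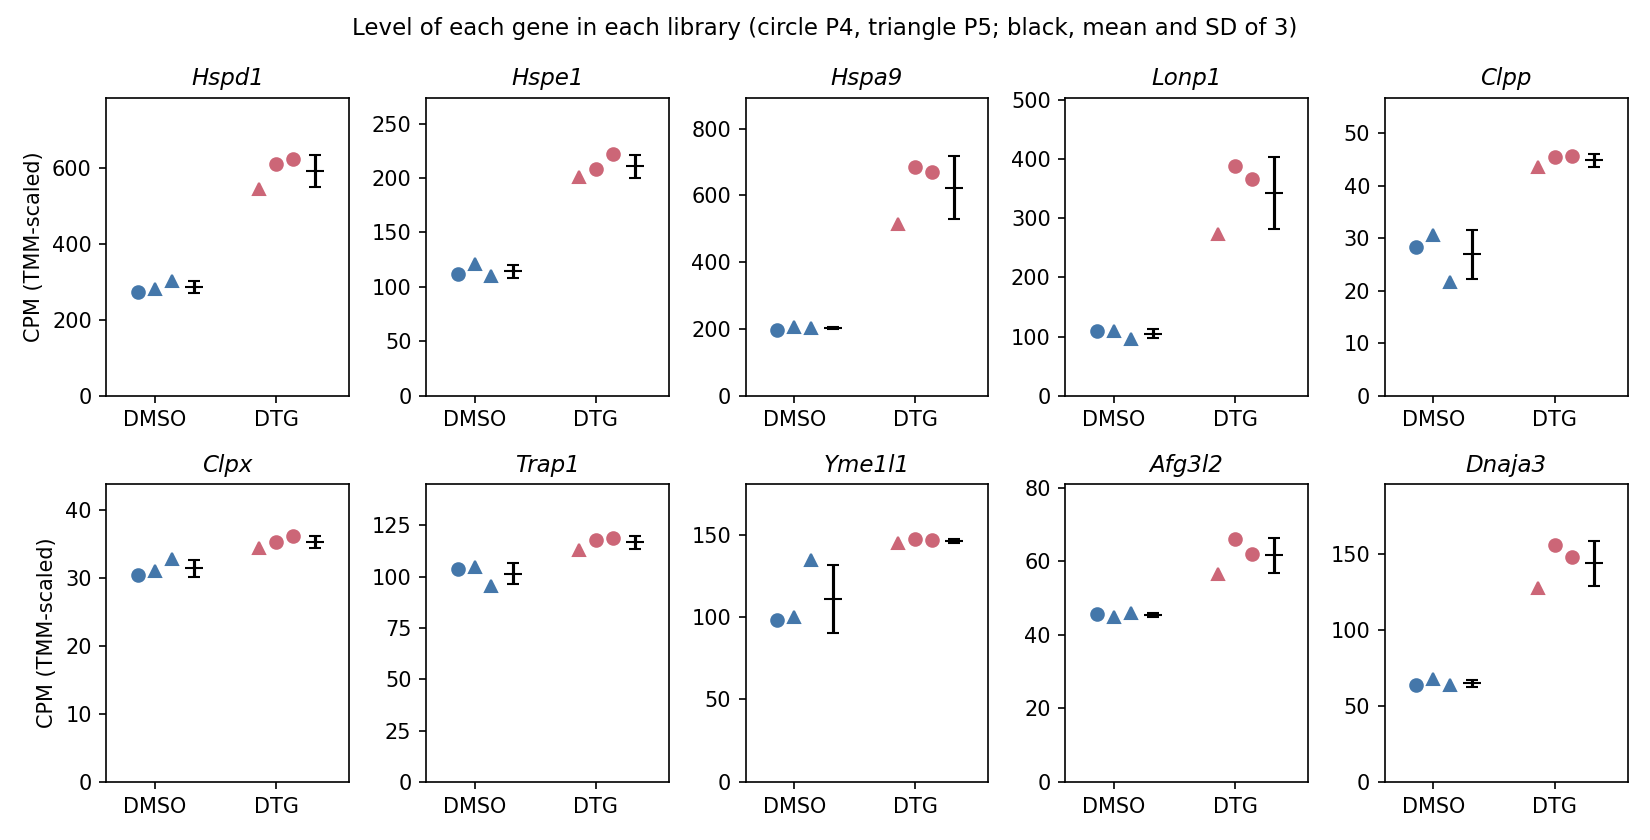
Level of each of the 10 genes in CPM (TMM-scaled, vertical axes from 0) in the 3 DMSO (blue) and 3 DTG (red) libraries, with circles for P4 and triangles for P5 libraries and the mean and SD of each group in black. DTG lies above DMSO in every panel, by a wide gap for Hspd1, Hspe1, Hspa9, Lonp1 and Dnaja3 and by a narrow one for Clpx and Yme1l1.

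Hspa9 and its partner Dnaja3 had the largest increases among the 5 chaperone genes. Hspa9 stood at 197.8, 206.0 and 203.4 CPM in DMSO replicates 1 to 3 and at 515.3, 684.1 and 670.2 CPM in DTG replicates 1 to 3. The DMSO libraries were nearly alike, and DTG replicate 1 lay below the other DTG libraries while remaining far above every DMSO library. The change of 1.62 ± 0.11 log2 (SE, adjusted p = 1.76e-06) exceeded that of 97% of the genes tested. Between P4 libraries only it was 1.78, and between P5 libraries only 1.33. Dnaja3, the J-domain partner that delivers clients to mtHSP70, went from 63.7, 67.6 and 63.5 CPM to 127.3, 155.5 and 148.1 CPM. Its groups were far apart, and again DTG replicate 1 was the lowest of its group. Its log2 change was 1.15 ± 0.09 (SE, adjusted p = 4.04e-06). In the gene models Dnaja3 shares 3.91% of its exon bases with Coro7 on the opposite strand and 4.09% with Vasn on its own strand, and reads in those parts cannot be assigned with certainty, since no source used here gives the strand setting of the counting. Grpel1 and Grpel2, which release ADP from mtHSP70 so that it can let go of its clients, rose 1.65-fold and 1.71-fold (adjusted p = 6.98e-05 and 3.70e-05).

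The HSP60 and HSP10 genes, whose products work as 1 barrel, lie head to head on chromosome 1 and rose together. The Hspe1 start and the Hspd1 start that lies outside Hspe1 are 216 bases apart. The stretch between them is shown because it is upstream of both of these starts. It is chr1:55087933-55088147 of GRCm38.p6, read on the Hspe1 strand from the RefSeq promoter table, in lower case with capitals marking 18 bases of alternating TTC and GAA units, the letters of heat shock elements, the sites that heat shock factors bind.
Hspd1-Hspe1 shared stretch: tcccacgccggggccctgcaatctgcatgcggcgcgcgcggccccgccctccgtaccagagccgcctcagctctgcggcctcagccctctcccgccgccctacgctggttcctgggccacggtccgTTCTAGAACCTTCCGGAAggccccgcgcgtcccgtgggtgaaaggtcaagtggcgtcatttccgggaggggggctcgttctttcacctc
The capitals lie 72 to 89 bases before the Hspe1 start and hold GAANNTTC, an inverted pair of such units. GAANNTTC was present on either strand in 7.86% of 32851 mouse promoter windows of 300 bases (250 before to 50 after a start). The 3-unit form GAANNTTCNNGAA, which overlaps it and was searched after the letters were seen, was present in 0.603% of windows. RefSeq also lists a second Hspd1 start, 95 bases inside Hspe1 on the opposite strand. The printed stretch and its capitals lie downstream of that second start, not upstream of it. The gene models share 112 exon bases, which is 4.24% of the Hspd1 and 7.6% of the Hspe1 exon bases. A match describes the letters only and is not evidence of binding.

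Hspd1 stood at 274.2, 280.2 and 303.7 CPM in DMSO and at 545.3, 611.4 and 624.4 CPM in DTG. Its lowest DTG library was well above its highest DMSO library. On the log2 scale the change was 1.05 ± 0.08 (SE, adjusted p = 4.50e-06). Split by tag it was 1.17 for P4 and 0.90 for P5. Hspe1 went from 112.1, 120.6 and 109.9 CPM to 201.4, 208.6 and 222.3 CPM, again with no overlap. Its log2 change was 0.88 ± 0.08 (SE, adjusted p = 7.90e-06). The log2 ratio of Hspd1 to Hspe1 counts within a library, which does not depend on library scaling, averaged 1.32 ± 0.13 for DMSO against 1.49 ± 0.06 for DTG (SD, n = 3 each). These ratios overlapped between groups (difference 0.17, two-sided exact permutation p = 0.2), and over leaving out each library the difference ranged from 0.11 to 0.24. Processed pseudogenes of both genes exist in mammals, and no source used here says how reads shared with them were counted.

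Trap1, the mitochondrial HSP90, moved little. It stood at 103.8, 104.7 and 95.4 CPM in DMSO and at 113.2, 118.0 and 118.7 CPM in DTG. The groups did not overlap, but the gap between them was smaller than the range within DMSO. The log2 change of 0.20 ± 0.07 (SE) passed narrowly (adjusted p = 0.0345). The call was lost in 9 of 15 alternative fits, over which the adjusted p ranged from 0.0108 to 0.723. Leaving out DMSO replicate 1 gave 0.0603, DMSO replicate 2 gave 0.0546, DTG replicate 2 gave 0.0731 and DTG replicate 3 gave 0.0872. Its ER counterpart Hsp90b1 rose 15.1-fold, from 1100 ± 77.5 to 16583 ± 1110 CPM (SD, n = 3 each). The log2 ratio of Trap1 to Hsp90b1 counts was -3.44 ± 0.17 with DMSO and -7.15 ± 0.06 with DTG, with no overlap (exact permutation p = 0.1).

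Lonp1, the matrix protease that removes misfolded and oxidised proteins, had the largest change of the 10. It stood at 109.8, 110.2 and 95.4 CPM in DMSO and at 274.2, 388.7 and 367.0 CPM in DTG. DTG replicate 1 was again the lowest of its group, and it too lay far above DMSO. The log2 change was 1.71 ± 0.13 (SE, adjusted p = 3.41e-06), 1.78 within P4, 1.42 within P5 and 1.88 without DTG replicate 1. Its upstream sequence is shown for contrast with the shared stretch above, since the gene that rose most held none of the 9 motifs searched, and neither did Clpp. It is chr17:56626904-56627153 of GRCm38.p6 on the minus strand, the 250 bases before the RefSeq start, and no letter is in capitals.
Lonp1 upstream: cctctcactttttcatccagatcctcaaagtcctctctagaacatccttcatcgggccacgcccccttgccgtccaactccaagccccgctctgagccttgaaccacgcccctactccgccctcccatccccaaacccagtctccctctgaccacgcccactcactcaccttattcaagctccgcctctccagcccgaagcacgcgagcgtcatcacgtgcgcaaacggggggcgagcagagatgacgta
The motifs were both heat shock forms, the CCAAT box, the CRE TGACGTCA, the ATF4-C/EBP element TGATGNAAT, the UPRE TGACGTGG, the ERSE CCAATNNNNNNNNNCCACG (which contains CCAAT), the ERSE-II (which contains the reverse complement of CCAAT) and the NRF1 core CGCATGCG, each on both strands. Of the 8 members with an entry in the RefSeq table, the heat shock forms were found at Hspd1 and Hspe1, the CRE at Trap1 (1.79% of all windows), the NRF1 core at Clpx (1.87%) and CCAAT at the second Hspd1 start, Yme1l1, Clpx and Dnaja3 (37.4%). None of the 8 held the ATF4-C/EBP element (0.965% of all windows), the UPRE (0.676%), the ERSE (0.119%) or the ERSE-II (0.0365%). Hspa9 and Afg3l2 were not searched. The absence of a match says only that these letters are not in these windows.

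Of the matrix pair, Clpp passed the test and Clpx did not. Clpp, the peptidase chamber, stood at 28.4, 30.7 and 21.7 CPM in DMSO and at 43.5, 45.4 and 45.7 CPM in DTG. DMSO replicate 3 lay below the others, and the DTG libraries were close together and above all of them. Clpp changed by 0.73 ± 0.12 log2 (SE, adjusted p = 4.44e-04). Clpx, the unfoldase that feeds the chamber, stood at 30.4, 31.1 and 32.8 CPM in DMSO and at 34.4, 35.3 and 36.2 CPM in DTG. The difference of 0.17 ± 0.08 log2 (SE) did not pass (adjusted p = 0.0828). It passed without DMSO replicate 3 (adjusted p = 0.0315) and without DTG replicate 1 (0.0335), and was -0.0031 log2 with library size alone (range of adjusted p over 15 alternatives 0.0315 to 0.974). The log2 ratio of Clpp to Clpx counts was -0.10, -0.02 and -0.60 for DMSO replicates 1 to 3 against 0.34, 0.36 and 0.34 for DTG. It was higher in each DTG library than in any DMSO library, by 0.58 on average (exact permutation p = 0.1, two-sided, and no smaller p is possible with 3 libraries a group), and by 0.40 without DMSO replicate 3.

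The proteases of the inner membrane rose by smaller amounts. Afg3l2, the subunit of the m-AAA protease that can work with or without its partner Spg7, stood at 45.7, 44.8 and 45.9 CPM in DMSO and at 56.7, 66.2 and 62.1 CPM in DTG. The DMSO libraries were nearly identical and all DTG libraries lay above them. Afg3l2 changed by 0.44 ± 0.08 log2 (SE, adjusted p = 9.28e-04). Spg7 (paraplegin) went the other way, from 53.7, 57.5 and 50.5 CPM to 40.3, 37.6 and 37.0 CPM, a decrease of 1.41-fold (adjusted p = 4.75e-04). The log2 ratio of Afg3l2 to Spg7 counts averaged -0.24 ± 0.11 for DMSO against 0.69 ± 0.17 for DTG (SD, n = 3 each), so that Spg7 had the higher count in each DMSO library and Afg3l2 in each DTG library (difference 0.93, exact permutation p = 0.1). Yme1l1, the i-AAA protease that faces the intermembrane space, stood at 98.4, 100.2 and 134.8 CPM in DMSO and at 145.2, 147.6 and 146.5 CPM in DTG. DMSO replicate 3 lay much closer to the DTG libraries than to the other DMSO libraries. The log2 change was 0.40 ± 0.11 (SE, adjusted p = 0.013), and the range over alternatives was 3.23e-04 to 0.104. The call was lost with library size alone (0.104), and on leaving out DMSO replicate 1 (0.0601) or DMSO replicate 2 (0.0651).

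**Figure D2:**
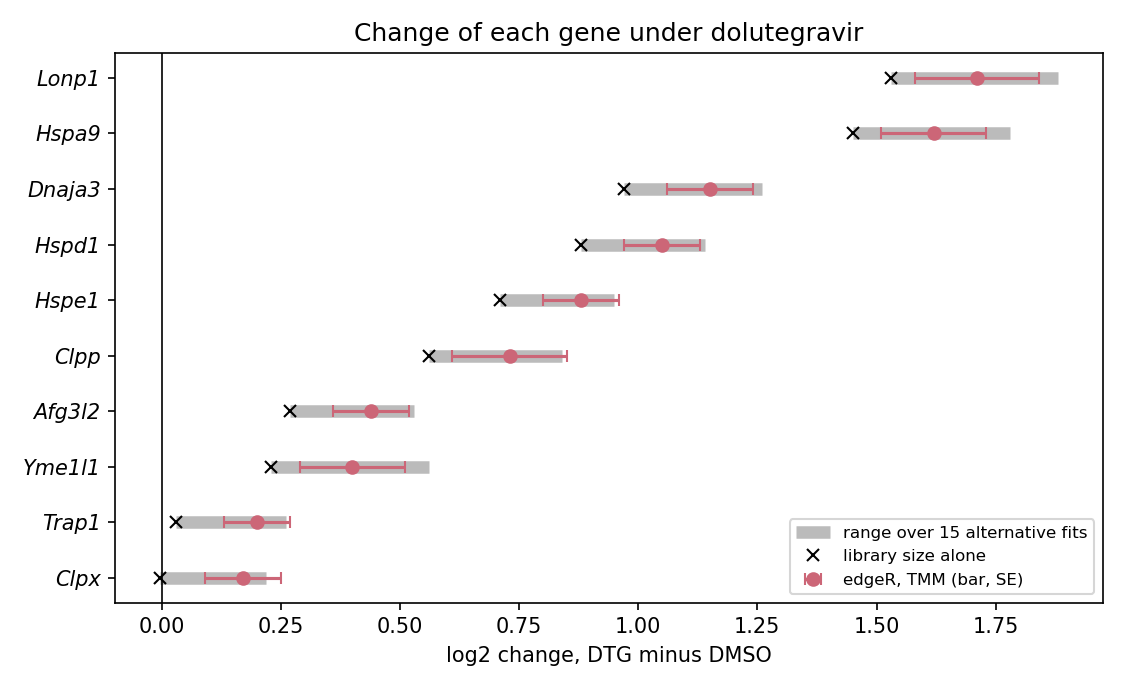
Log2 change (DTG minus DMSO) of each gene with its SE from the edgeR fit (red), the range over 15 alternative fits (grey) and the value with library size alone (cross). Lonp1 and Hspa9 lie at or above 1.45 in every fit, whereas Trap1 and Clpx reach values near 0 with library size alone.

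Per kilobase of annotated exons, the chaperonin was the most abundant of these transcripts. In DMSO the order of CPM per kilobase was Hspd1 (108.3 ± 5.92), Hspe1 (77.5 ± 3.85), Hspa9 (47 ± 0.971), Trap1 (39.4 ± 1.99), Lonp1 (24 ± 1.93), Clpp (22 ± 3.83), Dnaja3 (16.6 ± 0.589), Yme1l1 (13.9 ± 2.56), Clpx (9 ± 0.362) and Afg3l2 (4.6 ± 0.0585; SD, n = 3 each). Only the neighbours Lonp1 and Clpp, and Dnaja3 and Yme1l1, overlapped between libraries in that order. In DTG, Hspa9 (144.6 ± 21.7) reached the level of Hspe1 (143 ± 7.21) and overlapped it, and Lonp1 (78.5 ± 13.9) stood above Trap1 (45.3 ± 1.17) with no overlap. Dnaja3 (36.7 ± 3.74) and Clpp (36.7 ± 0.972) could not be ordered. Hspd1 stayed first (224.7 ± 16) and Clpx and Afg3l2 stayed last. The length is the union of all annotated exons, which is long for Afg3l2 (9.87 kb) and Yme1l1 (8.01 kb) and lowers their values. Any order between genes, such as that of Hspe1 (1.47 kb) and Hspa9 (4.31 kb), depends on these lengths.

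Within-library ratios compared the partners of each machine. For the helpers of mtHSP70, the log2 ratio of Dnaja3 to Hspa9 counts averaged -1.64 ± 0.04 with DMSO and -2.11 ± 0.08 with DTG, and that of Grpel1 to Hspa9 -1.35 ± 0.12 and -2.24 ± 0.12 (SD, n = 3 each). Both were lower in every DTG library than in any DMSO library. The ratio of Hspa9 to its ER relative Hspa5 (BiP) was -1.83 ± 0.06 and -4.42 ± 0.04, so it was lower with DTG. The ratio of Hspa9 to the cytosolic Hspa8 was -3.48 ± 0.04 and -2.04 ± 0.35, so it was higher with DTG. Hspa8 itself had a log2 difference of 0.17 that missed the threshold (adjusted p = 0.126) and passed with the P tag as a term (0.21 log2, 0.0478). The ratio of Yme1l1 to Afg3l2 counts overlapped between groups (1.27 ± 0.24 and 1.25 ± 0.10, exact permutation p = 0.9). Of the 9 ratios, 7 did not overlap between groups, each with exact permutation p = 0.1 and adjusted p = 0.129 over the 9, so no ratio could pass in this design. Single genes did not overlap in 64.2% of all genes tested. No such share was obtained for ratios of other gene pairs, so the count of 7 has no background.

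**Figure D3:**
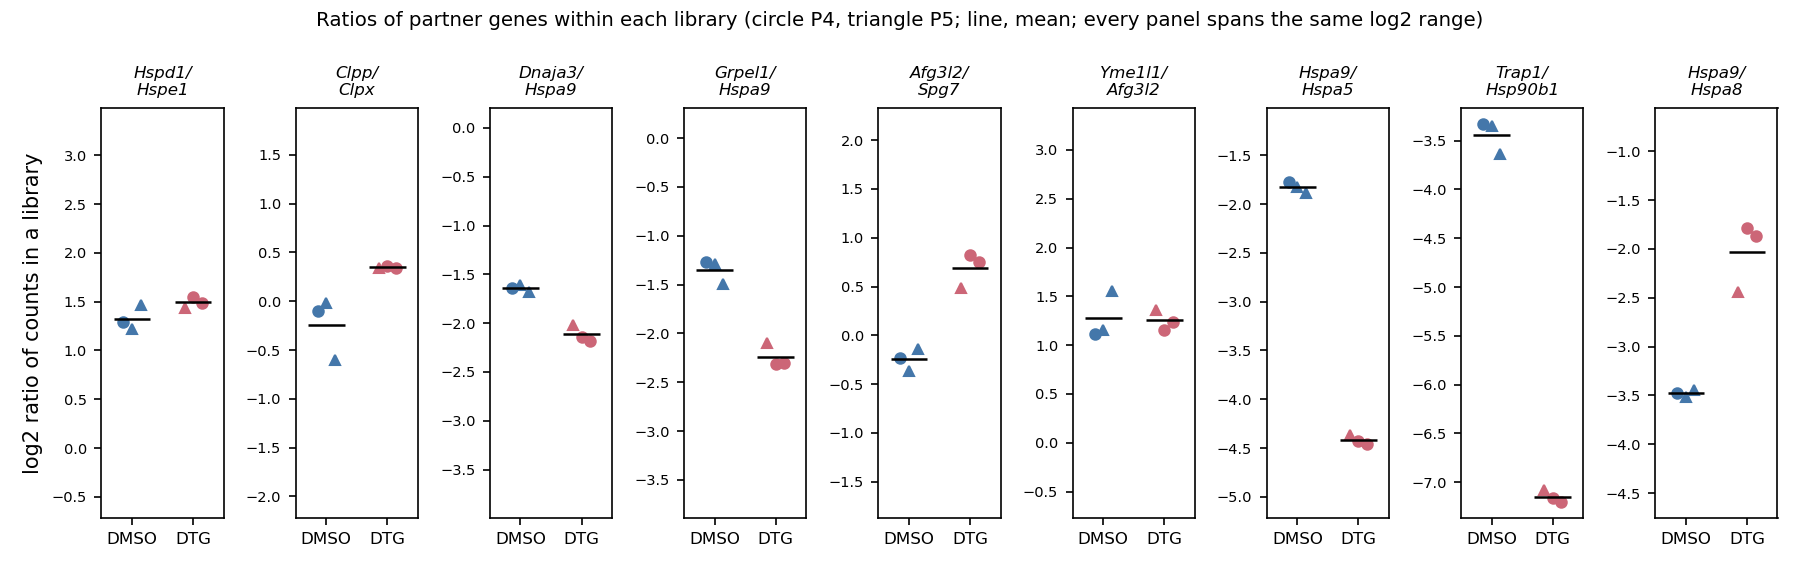
Log2 ratio of the counts of 2 genes within each library (circles P4, triangles P5, line for the group mean), with every vertical axis spanning the same number of log2 units. The groups overlap for Hspd1/Hspe1 and Yme1l1/Afg3l2 and are apart in the other 7 panels, most of all for Trap1/Hsp90b1 and Hspa9/Hspa5.

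Further genes of mitochondrial protein quality control were read from the same fit. Of 27 folding partners, further proteases and protease scaffolds, 13 passed as higher and 2 as lower, with a median of 0.24 log2. The share called higher was 48.1%, beside 27.4% of all genes tested, of which 29.3% were lower. The largest increase among the 27 was in Parl, the rhomboid protease of the inner membrane, from 44.0 ± 2.17 to 85.3 ± 4.30 CPM (SD, n = 3 each, adjusted p = 5.21e-06). Spg7 and Oma1, a stress-activated inner membrane protease, were the 2 that passed as lower. Oma1 fell by 0.23 log2 with adjusted p = 0.0495 and kept its call in 5 of 15 alternatives (range 0.00339 to 0.228). The adjusted p was 0.0586 without DMSO replicate 1, 0.171 without DMSO replicate 2, and 0.0717, 0.16 and 0.228 on leaving out DTG replicate 1, 2 or 3. Htra2, a protease of the intermembrane space, had a log2 difference of -0.15 (adjusted p = 0.217), and its groups overlapped. It passed as lower with library size alone (-0.32 log2, adjusted p = 0.0216). With library size alone 7 of the 27 were higher and 6 lower, beside 2536 higher and 5730 lower of the 14101 genes tested.

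Of 23 genes of the import translocases, 11 passed as higher and 0 as lower, with a median of 0.33 log2. The share called higher was 47.8%, beside 27.4% of all genes tested, of which 29.3% were lower. The largest change among the 23 was in Timm8a1, a small chaperone of the intermembrane space, at 1.07 log2 (adjusted p = 3.28e-05). Timm23, the channel of the inner membrane, rose 1.79-fold, and Timm44, which tethers mtHSP70 to that channel, differed by 0.17 log2 without passing (adjusted p = 0.082). It passed without DTG replicate 1 (0.038) and was -0.0022 log2 with library size alone. The count of 0 lower in edgeR was also 0 at an unadjusted p under 0.05, with DESeq2 and with limma-voom, and 1 with library size alone.

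Mitochondrial genes outside this machinery were read in the same way. Of 12 reference genes for mitochondrial metabolism, channels and DNA, 4 were higher and 2 lower, with a median of 0.05 log2. The share called higher, 33.3%, is near the 27.4% of all genes tested, and the share called lower is below their 29.3%. Without DMSO replicate 1 the counts were 2 and 2, and with library size alone 2 and 3, with a median of -0.12 log2. Citrate synthase (Cs) differed by 0.15 log2 (adjusted p = 0.0875; -0.02 with library size alone), while the channel gene Vdac3 and the cytochrome c gene Cycs rose 1.59-fold and 1.98-fold. Tfam, which packages mitochondrial DNA, rose 1.25-fold (adjusted p = 0.0121) and did not pass without DMSO replicate 1 (0.0542) or with library size alone (0.15 log2, 0.171).

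The 13 protein genes of mitochondrial DNA gave counts that turned on single libraries. With all libraries 2 were higher and 1 lower, with a median of 0.45 log2. The share called higher, 15.4%, was below the 27.4% of all genes tested, of which 29.3% were lower. Without DMSO replicate 3, the library with the highest share of mitochondrial counts, 9 of the 13 were higher and 0 lower, with a median of 0.89 log2. Without DMSO replicate 2, 0 were higher and 1 lower, and 6 were higher and 1 lower with the P tag as a term. The share of mitochondrial counts was 2.47%, 3.09% and 4.27% in DMSO replicates 1 to 3 and 3.58%, 2.75% and 2.8% in DTG replicates 1 to 3, so the groups overlapped. With all libraries mt-Nd2 rose by 0.78 log2 (adjusted p = 0.015) and mt-Co1 fell by 0.53 log2 (adjusted p = 0.0114). The call of mt-Nd2 was lost without DMSO replicate 2 (0.0524) and with no count filter (0.113), and that of mt-Co1 without DMSO replicate 3 (0.0507) or DTG replicate 2 or 3 (0.0542 and 0.0539). The other called gene, mt-Co3, named after its values were seen, differed by 0.61 log2 (adjusted p = 0.0436). It missed the threshold on leaving out any single library other than DMSO replicate 3 (0.078 to 0.125). It also missed it with DESeq2 (0.0596), the replicate block (0.0595), upper-quartile scaling (0.0722), library size alone (0.114) and no count filter (0.206), and was 0.80 log2 with the P tag as a term (7.03e-04).

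**Figure D4:**
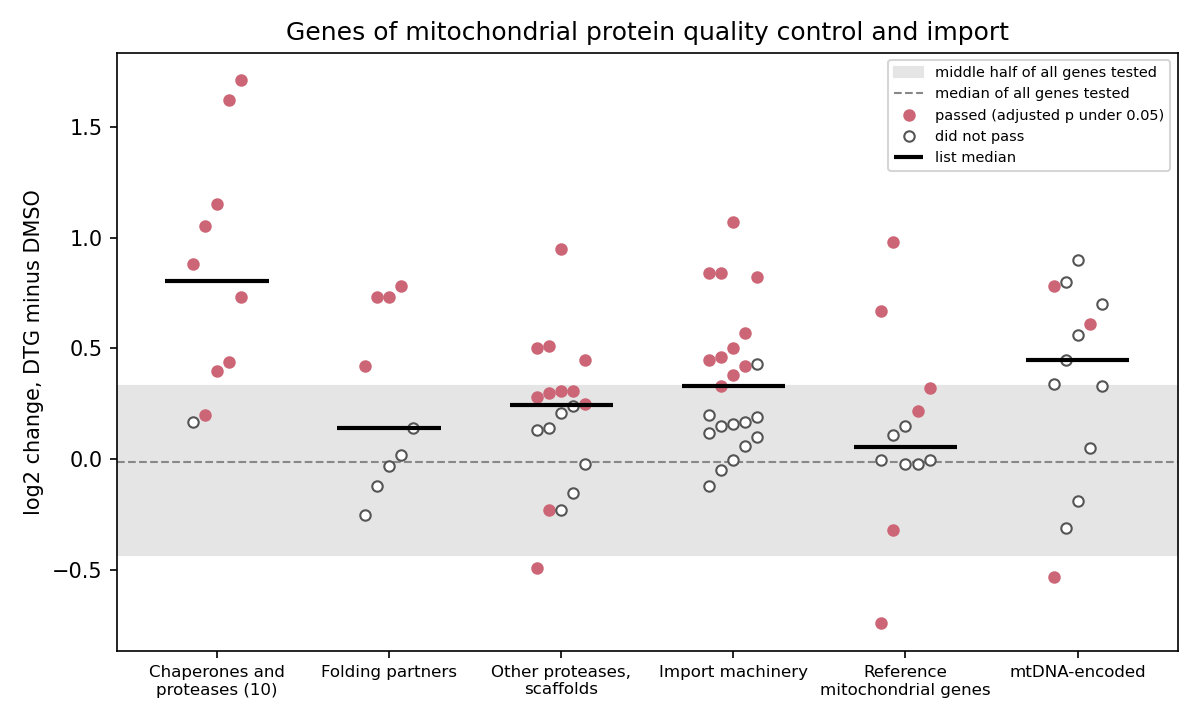
Log2 change of every tested gene in 6 lists, filled where it passed the edgeR test, with the list median (black line) and, behind, the median (dashed) and interquartile range of all genes tested. The 10 chaperone and protease genes have a median of 0.81, above the medians of 0.14 to 0.45 of the folding partners, other proteases, import machinery and genes of mitochondrial DNA and of 0.05 of the reference genes, all with the 6 libraries; without DMSO replicate 3 the genes of mitochondrial DNA had a median of 0.89 and the 10 genes 0.73.

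Regulators tied to the mitochondrial and heat shock responses were split. Atf5 stood at 31.2, 28.1 and 25.3 CPM in DMSO and at 134.8, 174.0 and 155.4 CPM in DTG, a 5.48-fold rise (adjusted p = 1.94e-07). Ddit3 and Atf4 rose 30.1-fold and 5.45-fold. Hsf1, the main heat shock factor, rose 1.23-fold (adjusted p = 0.012) and missed the threshold with library size alone (0.13 log2, 0.237) and with upper-quartile scaling (0.21 log2, 0.0652). Of 11 listed regulators 10 were tested, 5 passed as higher and 2 as lower. The share called higher was 50%, beside 27.4% of all genes tested, of which 29.3% were lower. The 2 lower regulators were Dele1, which carries mitochondrial stress to the kinase HRI, and Ppargc1b, a coactivator of mitochondrial genes, at -0.38 and -0.56 log2. Of 15 chaperones of the cytosol and ER that are relatives of the members, 13 passed as higher and 0 as lower, the latter also at an unadjusted p under 0.05, with DESeq2 and with limma-voom. The share of these relatives called higher, 86.7%, was close to the 90% of the 10 members. Their median was 0.45 log2, beside 0.81 for the members. After Hspa5 (4.22) and Hsp90b1 (3.91) the next log2 change was 0.70, of the cytosolic chaperonin subunit gene Cct3, named after its value was seen.

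Among 9258 genes of at least 10 CPM, the profiles closest to Hspd1 over the 6 libraries, by root mean square difference of centred log2 CPM, were Arf4 (0.029), Rpf2 (0.029) and Calu (0.035). Those closest to Lonp1 were Thyn1 (0.051), Lmo4 (0.064) and Vegfa (0.077). The log2 changes were 1.08, 1.09 and 1.10 for the first 3 and 1.75, 1.82 and 1.83 for the others, and no member was among them. Changes close to those of Hspd1 (1.05) and Lonp1 (1.71) follow from the selection, because the profiles span both groups. They are therefore no separate result.

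DTG replicate 1 was the lowest DTG library for all 10 genes, and it was above every DMSO library for all 10. Among all genes called higher, it was the lowest of the DTG libraries in 72.9%. Its level relative to the mean of the other DTG libraries was lowest for Lonp1 (-0.46 log2) and Hspa9 (-0.39 log2), and nearest to them for Yme1l1 (-0.02 log2). A treatment by tag interaction was fitted in edgeR after the data were seen. Its log2 estimates (P5 minus P4) ranged from -0.44 for Hspa9 to 0.05 for Clpp, the only positive one. The fit rests on 1 DMSO library with P4 and 1 DTG library with P5. It therefore cannot decide whether the change differs by tag, and no conclusion is drawn from it. The effects of DTG replicate 1 and of the P5 tag on DTG values cannot be told apart, because DTG replicate 1 is the only DTG library with that tag.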

How the data were processed

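RNA was measured by poly(A) sequencing of 3 DMSO and 3 DTG libraries made with a kit that preserves strand, per the labels' protocols. The deposited values are raw counts for each Ensembl gene in a single table, which the authors left without normalization. GRCm39 is the genome build per the submitters' processing notes. Which aligner, counter, annotation and strand option were used is not given in the sources used here. Each column was matched to its sample by the library name in the labels, so the column spelled DIG is DTG replicate 1. Gene names came from a table that matched 38606 identifiers (89.2%). All 155 entries of the gene lists matched a gene. The symbol Ddit3 matched several identifiers, and the identifier with the most counts was used. Exon lengths and overlaps came from GENCODE gene models of GRCm38, and promoters from RefSeq (GRCm38.p6), which held 8 of the 10 members.

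Genes were kept by filterByExpr, scaled by TMM and tested with edgeR 4.0.16 in R 4.3.3 (quasi-likelihood F-test, robust, group as the only term, Benjamini-Hochberg over 14101 genes, threshold 0.05). Each SE was obtained as |log2 change| / sqrt(F). Values within P4 or P5 libraries are differences of mean log2 CPM without a test. Ratios of 2 genes were compared by a two-sided exact permutation test over libraries. Alternatives were DESeq2 1.42.0, voom of limma 3.58.1, RLE, upper-quartile and library-size scaling, no count filter, a filter at 1 CPM in 3 libraries, a threshold of 0.01, the P tag or the replicate number as a block, and omission of single libraries. The edgeR step was tested on simulated data. Replicates of a group differed by more than counting noise (chi-square per degree of freedom 8.88 to 58.7).

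The 10 genes and all lists were chosen with earlier results of these data known. Named genes were the 10 members, in each list the 2 smallest p-values and every called gene with a log2 change of at least 1 in size, 14 fixed genes, and the nearest profiles of Hspd1 and Lonp1. Oma1, Dele1, Ppargc1b, mt-Co3 and Cct3 fall outside that rule and were named, after their values were seen, as the few members of a count or the next in order. Markers and the 3-unit motif are described where they are used.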

Additional observations from a re-analysis of the deposited data

How the results depend on the processing

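Of 160 values of the 10 genes under 16 alternatives, 143 kept their direction and their side of the threshold, 14 lost the call, 2 gained it and 1 reversed. The losses concerned Trap1 and Yme1l1, the gains and the reversal Clpx, which was -0.0031 log2 with library size alone. The 7 other genes kept their call in every fit. Cs (-0.02) and Timm44 (-0.0022) also changed sign with library size alone. The median of the 10 genes (0.81) became 0.64 under library-size and 0.72 under upper-quartile scaling, and ranged from 0.73 to 0.88 on leaving out 1 library; members called higher then numbered 7 to 10. With library size alone 2536 of all genes were higher, 7 folding partners and other proteases were higher and 6 lower, and 1 import gene was lower. The 2 lower folding partners and proteases became 5 with upper-quartile factors and 1 with DESeq2, RLE, no count filter, the P tag, the replicate block or a threshold of 0.01, and 1 to 3 on leaving out 1 library.

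With the title's replicate number as a replicate block, 8 of the 10 genes were higher, 3543 of all genes were higher and 3728 lower. Deviations from the group mean correlated at -0.293, -0.142 and -0.081 across genes between libraries of the same number, so the number was not taken to pair libraries. On leaving out 1 library the log2 ratio differences ranged from 0.40 to 0.69 for Clpp/Clpx, from 0.11 to 0.24 for Hspd1/Hspe1, from -3.81 to -3.65 for Trap1/Hsp90b1 and from -0.11 to 0.12 for Yme1l1/Afg3l2. The last was 0.12 without DMSO replicate 3 and 0.02 without DTG replicate 2, where the full difference was -0.02; the cause was not tested. Counts of at least 942 per library for each member leave counting error small; 3 libraries per group limit the precision.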
